A study of Mus musculus with 16 samples.

Results

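The photoreceptor membrane guanylate cyclases, their calcium sensors and the proteins that shut the light response off were examined in mouse retina. The members were named by symbol: Gucy2e, Gucy2f, Guca1a, Guca1b, Rd3, Rcvrn, Grk1, Rgs9, Rgs9bp and Pdc. All 10 were listed, out of 25905 gene symbols. RNA was sequenced from the right retinas of 16 male wild type C57BL/6 mice in 2 groups of 8. The labelled age of both groups, 10 weeks, is that of the flight mice at launch, so the retinas came from older animals. The spaceflight mice flew on the International Space Station and stayed in orbit for 35 days, and their eyes were collected about 38 hours after splashdown. The ground control mice lived on Earth in the same type of housing hardware. The values below are means of normalised counts pooled by the authors over all libraries, so they carry no SD and no group, and the difference between spaceflight and ground control was not analysed here. Because no spread between mice goes with a pooled mean, an order of levels is given as a description and neighbours in it were not tested. In whole retina, more cells of a type and more RNA per cell cannot be told apart.

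In the dark, rods and cones hold their cation channels open with cyclic GMP, and calcium enters through them. Light leads to the breakdown of cyclic GMP, the channels close and calcium falls, which frees the cyclase activating proteins to switch the cyclases on and releases recoverin from the receptor kinase Grk1. The response then ends as the light-activated receptor is phosphorylated and as transducin hydrolyses its GTP with the help of the Rgs9 complex.

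Of the 10 genes, 8 had mean normalised counts above 1000 and 2, Rd3 and Pdc, were below 1. Genes were compared after division by the length of the longest annotated protein-coding transcript, and ranked among the 16216 symbols that were above 0 and had such a length. On this scale the same 8 genes were in the top 5%. The median of all ranked symbols was 26.2 normalised counts per kilobase. Together the 10 genes held 1.11% of the summed normalised counts of all symbols.

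Gucy2e encodes the main photoreceptor cyclase, and Gucy2f the other cyclase of the outer segment. Gucy2e had a mean normalised count of 6764 and Gucy2f one of 3598. Per kilobase the levels were 812 for Gucy2e and 443 for Gucy2f, so Gucy2e was 1.83 times as high. The ratio was 4.19 with the shortest annotated transcripts, because Gucy2e also has a transcript of 3645 bases beside the one of 8331 bases. Gucy2f was close to the edge of the top 5%, which lay at 441 per kilobase, and was outside it with the shortest transcripts or among genes with a mean normalised count of at least 10.

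The upstream sequence of both cyclases and of the activator Guca1a is shown because each holds the 6 letters that the photoreceptor factor Crx is known to prefer. RefSeq windows (GRCm38.p6) of 250 bases before the gene start were found for 7 of the 10 genes, in 8 windows. They were searched on both strands for TAATCC, whose reverse complement is GGATTA. These letters were in the windows of 3 of the 7 genes, and in 6.25% of all 32851 windows of the same length. Among genes with a window, 16 of the 100 with the highest mean normalised counts had a match, against 1048 of 15317 genes (6.84%). The capitals mark the matches, and the sequences run 5′ to 3′ on the strand of the gene, ahead of any annotated exon. The 14 bases nearest the start of Gucy2e are left out, since another transcript of the gene begins there.
Gucy2e, chr11:69237037-69237272, minus strand: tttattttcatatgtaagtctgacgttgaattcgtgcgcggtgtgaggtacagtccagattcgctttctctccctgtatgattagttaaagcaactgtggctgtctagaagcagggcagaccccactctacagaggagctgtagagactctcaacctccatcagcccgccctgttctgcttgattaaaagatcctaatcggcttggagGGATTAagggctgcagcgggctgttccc
Gucy2f, chrX:142196937-142197186, minus strand: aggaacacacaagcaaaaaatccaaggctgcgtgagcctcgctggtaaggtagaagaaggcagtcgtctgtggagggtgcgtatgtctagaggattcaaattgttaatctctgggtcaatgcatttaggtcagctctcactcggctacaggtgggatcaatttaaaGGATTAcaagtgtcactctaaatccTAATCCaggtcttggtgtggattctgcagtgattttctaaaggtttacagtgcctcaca
Guca1a, chr17:47400607-47400856, minus strand: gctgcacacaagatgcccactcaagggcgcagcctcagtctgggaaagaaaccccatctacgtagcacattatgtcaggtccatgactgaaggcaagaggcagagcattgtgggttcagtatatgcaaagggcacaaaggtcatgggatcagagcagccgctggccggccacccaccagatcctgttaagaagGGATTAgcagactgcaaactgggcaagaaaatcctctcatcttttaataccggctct
Gucy2e had a match from 42 to 37 bases before its start, and Guca1a one from 57 to 52 bases before. The RefSeq start lies ahead of the nearest GENCODE start by 22 bases in Guca1a and by 5 in Gucy2f, so these distances depend on the start used. Gucy2f had 2 matches, from 84 to 79 and from 59 to 54 bases before its start. The letters TATAAA, the core of a TATA box, were in the window of Rgs9 and of no other member with a window, and in 12.4% of all windows. In Rgs9 they lie toward the end of the window away from the start. The RefSeq start of Rgs9 is itself 52 bases ahead of the nearest GENCODE start. TGCTGA, a core of sites bound by factors such as Nrl, was also found in the window of Rgs9 alone among those members and in 16.1% of all windows. A match of this kind describes the letters and does not show binding.

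The other particulate cyclases were listed at lower levels per kilobase than Gucy2e and Gucy2f. Npr2, the receptor for C-type natriuretic peptide, had 102 per kilobase and Npr1, a receptor for atrial natriuretic peptide, had 5.03. Gucy2g had 1.01 and the olfactory cyclase Gucy2d had 0.121, while the intestinal cyclase Gucy2c was listed at 0. The 2 retinal cyclases made up 92.1% of the summed level per kilobase of these 7 genes. Of the nitric oxide-sensitive soluble cyclase subunits, Gucy1a3 had 383 per kilobase and Gucy1a2 had 109. Gucy1b2 had 0.0507 and Gucy1b3, which encodes the common beta subunit, was listed at 0. Gucy2c and Gucy1b3, the genes of these lists at 0, were each counted under 2 transcript identifiers, as were Rd3 and Pdc, described below. Of their exonic bases, 96 of 3959 in Gucy2c and 60 of 3227 in Gucy1b3 were in 1 transcript only. Whether this bears on their levels was not tested. The newer symbols Gucy1a1 and Gucy1b1 were not listed.

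Guca1a and Guca1b encode the calcium-binding proteins that activate the cyclases when calcium falls. Guca1b had the higher mean normalised count, 6338 against 4889 for Guca1a. Per kilobase the order turned, with 5599.99 for Guca1a and 3799.5 for Guca1b, a ratio of 1.47, since the transcript of Guca1a has 873 bases and that of Guca1b has 1668 bases. Summed over both genes, the activators were at 7.49 times the level of both cyclases per kilobase, and at 4.21 times with the shortest transcripts. Guca1a and Guca1b are next to each other on chromosome 17, on opposite strands, with 1590 bases and no other annotated gene between them in GRCm38.

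**Figure D1:**
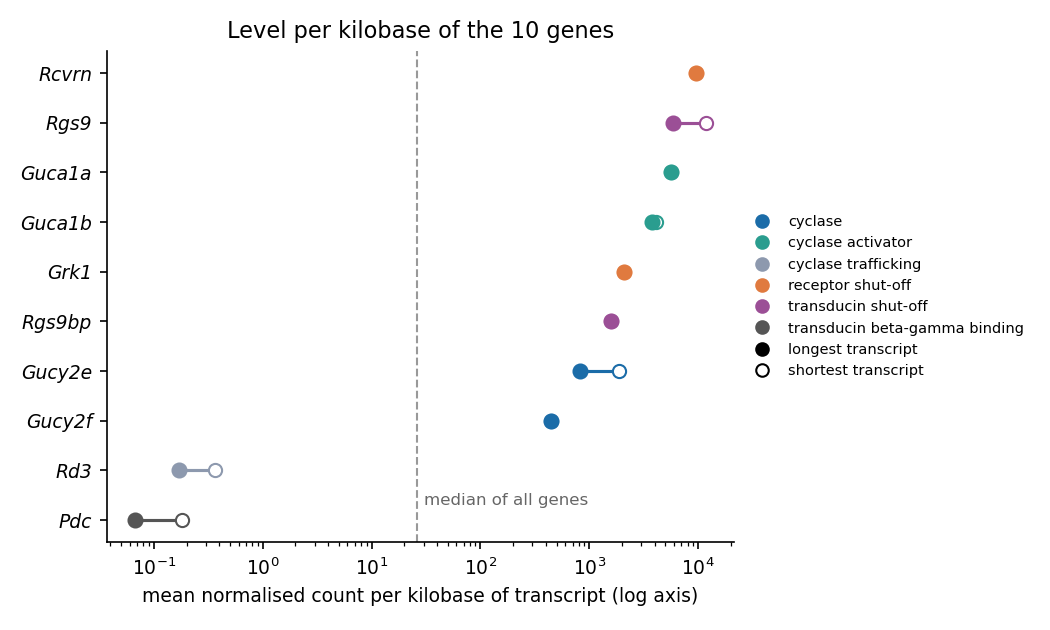
Mean normalised count per kilobase (log axis) of each of the 10 genes, coloured by role, with filled points for the longest and open points for the shortest annotated protein-coding transcript. The dashed line is the median of the 16216 ranked symbols (above 0 and with a length), 26.2. With the longest transcript, 8 genes lie between 443 and 9567 per kilobase while Rd3 and Pdc lie below 1.

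Rcvrn encodes recoverin, the sensor that holds Grk1 back while calcium is high. Its mean normalised count was 9949.5, or 9567 per kilobase, the highest of the 10 genes per kilobase and rank 12 among the ranked symbols. With the shortest transcripts Rgs9 was higher, at 11714 per kilobase against 9567 for Rcvrn. Grk1, which encodes the receptor kinase of photoreceptors, had a mean normalised count of 15400.1, but 2072 per kilobase of its 7431-base transcript. Recoverin was thus at 4.62 times the level of its target per kilobase, whereas before division by length it was at 0.646 times. Rcvrn lies within Glp2r, a gene on the opposite strand with a mean normalised count of 40.8. The library kit keeps strand, but whether the counting used it is not given in the sources used here.

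Recoverin and the activators belong to the neuronal calcium sensors, and all 13 genes of that list were found. The 3 photoreceptor genes made up 90.9% of the summed level per kilobase of the family. This share includes 4 genes with several transcript identifiers, Kcnip3, Hpca, Ncald and Kcnip2, whose mean normalised counts were 27.1, 2.82, 2.40 and 0.326, and symbols of that kind were listed lower across the table, as given below. Kcnip2, a potassium channel partner with 3 identifiers, was the lowest. Among the receptor kinases, Grk1 made up 90.3% of the summed level per kilobase of the 6 genes found. Adrbk1 was next with 146 per kilobase, followed by Adrbk2 with 40.3, Grk5 with 17.3, Grk4 with 15.6 and Grk6 with 2.62. Of these, Adrbk2, Grk4 and Grk6 had several identifiers, so the share of Grk1 carries the same limit. Adrbk1 and Adrbk2 are older symbols of the widely expressed kinases Grk2 and Grk3, which were not listed under those newer names.

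Rgs9 speeds up GTP hydrolysis by transducin, and Rgs9bp anchors it to the disc membrane. Rgs9 had the highest mean normalised count of the 10 genes, 20418, and Rgs9bp had 10374. Per kilobase Rgs9 was at 5894 and Rgs9bp at 1574, a ratio of 3.74 that became 7.44 with the shortest transcripts. It was 5.33 with the length of the counted transcript, a scale chosen after seeing the data. Gnb5, the beta subunit that Rgs9 needs, had 672 per kilobase. The other R7 proteins were lower, with 172 per kilobase for Rgs7, 129 for Rgs11 and 62.2 for Rgs6. Rgs9 made up 94.2% of the summed level per kilobase of these 4 R7 proteins. Rgs9 and Gnb5 were each counted under 2 identifiers and Rgs9bp under 1, so these comparisons carry the limit given for the receptor kinases. Rgs7bp, the other membrane anchor, had 97.5 per kilobase.

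Rd3 encodes a protein that carries the cyclases to the outer segment and keeps them inactive on the way. It was listed at a mean normalised count of 0.639, or 0.172 per kilobase, and 9.08% of ranked symbols were lower per kilobase. Pdc encodes phosducin, which binds the beta-gamma subunits of transducin and is abundant in photoreceptors. It was listed at a mean normalised count of 0.225, or 0.0674 per kilobase, and 4.80% of ranked symbols were lower. The longest transcript of Pdc, with 3335 bases, is not among its counted ones, and with the length of the counted transcript, a scale chosen after seeing the data, Pdc was at 0.180 and Rd3 at 0.172 per kilobase, so their order turned. With the shortest transcripts Rd3 was at 0.363 and Pdc at 0.182 per kilobase. In the phosducin family, Pdcl had 236 per kilobase and Pdcl3 had 96.7, while Pdcl2 had 0.135. Rd3l was not listed.

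In order of mean normalised count before division by length, Rgs9 was at rank 24 between Slc24a1 and Slc6a6, and Grk1 at rank 31 just after Rom1. Rgs9bp was at rank 46 between Syt1 and Agpat3, and Rcvrn at rank 49 between Zfp385a and Cpe. Gucy2e was at rank 75 between Msi2 and Rp1l1, and Guca1b at rank 83 between Slc12a5 and LOC100503489. These 6 genes were thus among the 100 highest symbols. Guca1a was at rank 129 between Cyfip2 and Itm2b, and Gucy2f at rank 216 between Taok1 and Lrit1. Of the 19667 symbols above 0, Rd3 was at rank 16730 between LOC100504170 and Gm10294, and Pdc at rank 18087 between rna1040 and Shd.

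Rd3, Pdc and Rgs9 differed from the other 7 genes in how they were counted: each had 2 RefSeq transcript identifiers in the count table, and the others had 1. Across the table, the 22086 symbols with 1 identifier had a median mean normalised count of 12.9, and 35.6% of them were below 1. The 2704 symbols with 2 identifiers had a median of 0.652, and 53.9% were below 1. The 1090 symbols with 3 or more had a median of 1.27, and 47.9% were below 1. At the upper end, 6.18% of symbols with 1 identifier reached a mean normalised count of 1000, against 0.896% (34) of the 3794 with several. Rgs9 had the second highest mean normalised count of those 3794.

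**Figure D2:**
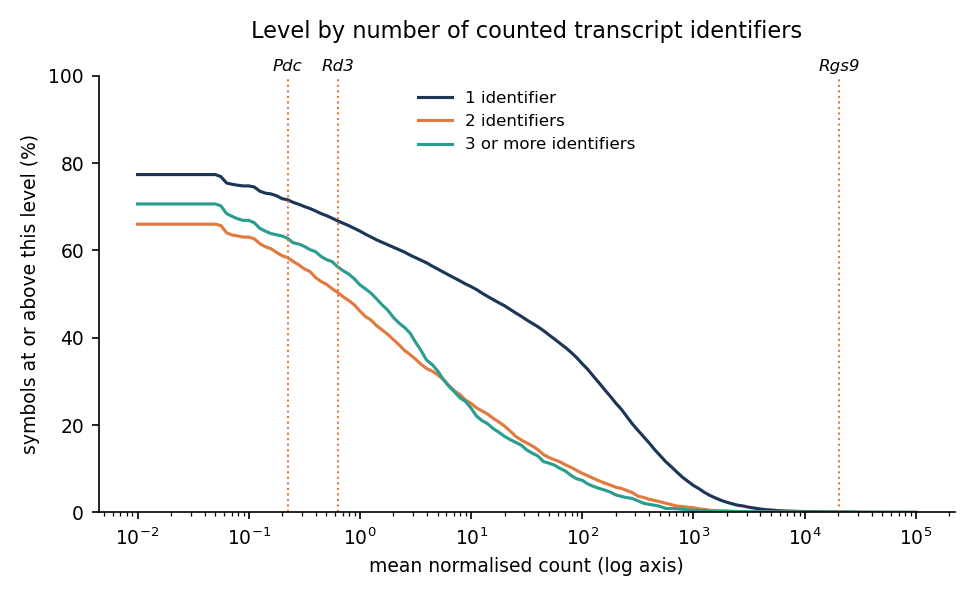
Percentage of symbols at or above each mean normalised count (log axis) for symbols with 1, 2, or 3 or more counted identifiers. The dotted lines mark Pdc at 0.225, Rd3 at 0.639 and Rgs9 at 20418, which each have 2 identifiers, and the curve for 1 identifier lies above the others at the levels of Pdc and Rd3.

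The counted transcripts of these 3 genes share exons to unequal degrees in GENCODE release 21 of the mouse. The transcripts of Pdc have 1246 and 1235 bases, and 13 of their 1247 exonic bases lie in 1 transcript only. The shorter transcript of Rd3, with 1760 bases, has no exonic base of its own, and the longer, with 3724 bases, has 1964. The transcripts of Rgs9 have 843 and 964 bases of their own, 55.1% of all their exonic bases. In this annotation the longest run of bases in 1 transcript only was 12 for Pdc, shorter than a read of 75 bases, and 1891 for Rd3. How reads in shared exons were counted is not given in the sources used here. The part of shared exons in the levels of Rd3 and Pdc was not tested. Both genes also overlap an antisense gene, Gm26670 for Rd3 and 2310030A07Rik for Pdc, and Pdc overlaps Gm37764 on its own strand. None of these overlapping genes was listed under these symbols, so they have no level here, and the part of overlap was not tested.

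**Figure D3:**
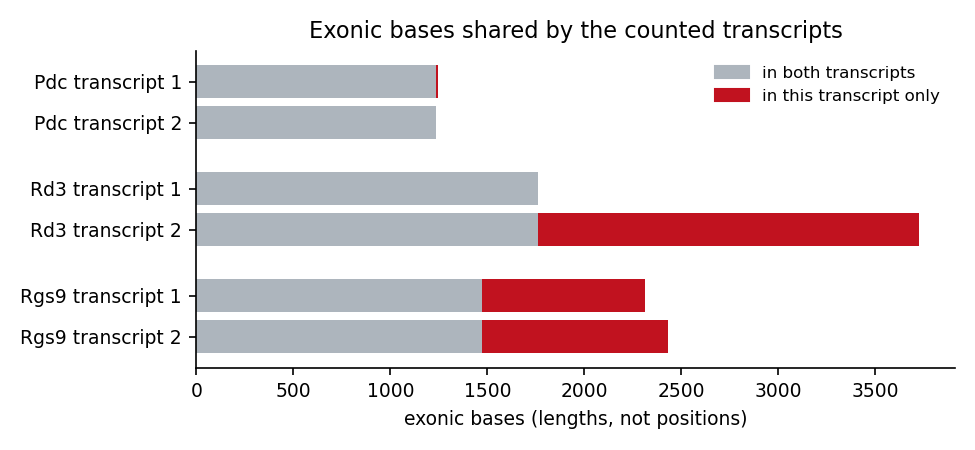
Exonic bases of each counted transcript of Pdc, Rd3 and Rgs9, split into those in both transcripts of the gene (grey) and those in 1 transcript only (red). The Rgs9 transcripts have 843 and 964 bases of their own, the longer Rd3 transcript has 1964 and the shorter none, and the Pdc transcripts have 12 and 1.

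The 8 abundant genes were set beside the rod and cone cascades, each given by 11 genes. The median level per kilobase was 5086 for the rod genes and 90.3 for the cone genes. The cone median is the level of Pde6h, whose mean normalised count of 537 was divided by a transcript of 5940 bases. Over the genes with 1 identifier it was 5649 for the 10 rod genes and 632 for the 8 cone genes. Gnat1, which encodes the alpha subunit of rod transducin, was at 66356 per kilobase, and Sag, which encodes rod arrestin, was at 17311. Rcvrn was exceeded per kilobase by 4 rod genes, and Rgs9 and Guca1a by 5 each. Guca1b was exceeded by 8 rod genes, and Grk1, Rgs9bp and both cyclases by 9. In the cone cascade, Opn1sw was at 1162 per kilobase, Opn1mw at 1148 and Gnb3 at 769. No cone gene exceeded Rcvrn, Rgs9, Guca1a, Guca1b, Grk1 or Rgs9bp, while 2 exceeded Gucy2e and 5 exceeded Gucy2f. These placements were made with the longest transcripts only.

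The lowest genes of both cascades had several identifiers, as Rd3 and Pdc did. Gnb1, the beta subunit of rod transducin, had a mean normalised count of 0.266 with 3 identifiers, and Pde6c, the cone phosphodiesterase, had 0.0699 with 2. The 4 cascade genes with several identifiers reached at most 2.53 per kilobase, and the 18 with 1 identifier were at 23.4 or more. In the R7 complex, by contrast, Rgs9 and Gnb5 each had 2 identifiers and were at 5894 and 672 per kilobase. The 23.4 belongs to Cngb1 of the rod list, with a mean normalised count of 145. This gene with 1 identifier was thus also below the median of all ranked symbols, 26.2 per kilobase. The limit of 2.53 is the level of Gngt2 divided by a transcript of 1587 bases. Its counted transcripts have 573 and 558 bases, so its level per kilobase would be higher with a counted length. The 4 cascade genes differed in their shared exons. For Gnb1 no exonic base was in 1 transcript only, but 2 of its 3 identifiers were placed on the same 3143 exonic bases. No base could therefore be in only 1 of those 2, so the absence of such bases was fixed by the placement. Pde6c has 459 of 2970 exonic bases in 1 transcript only. Gngt2 has 279 of 705 and Slc24a2 has 404 of 10717, both named after their values were seen. The part of shared exons in these levels was not tested.

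**Figure D4:**
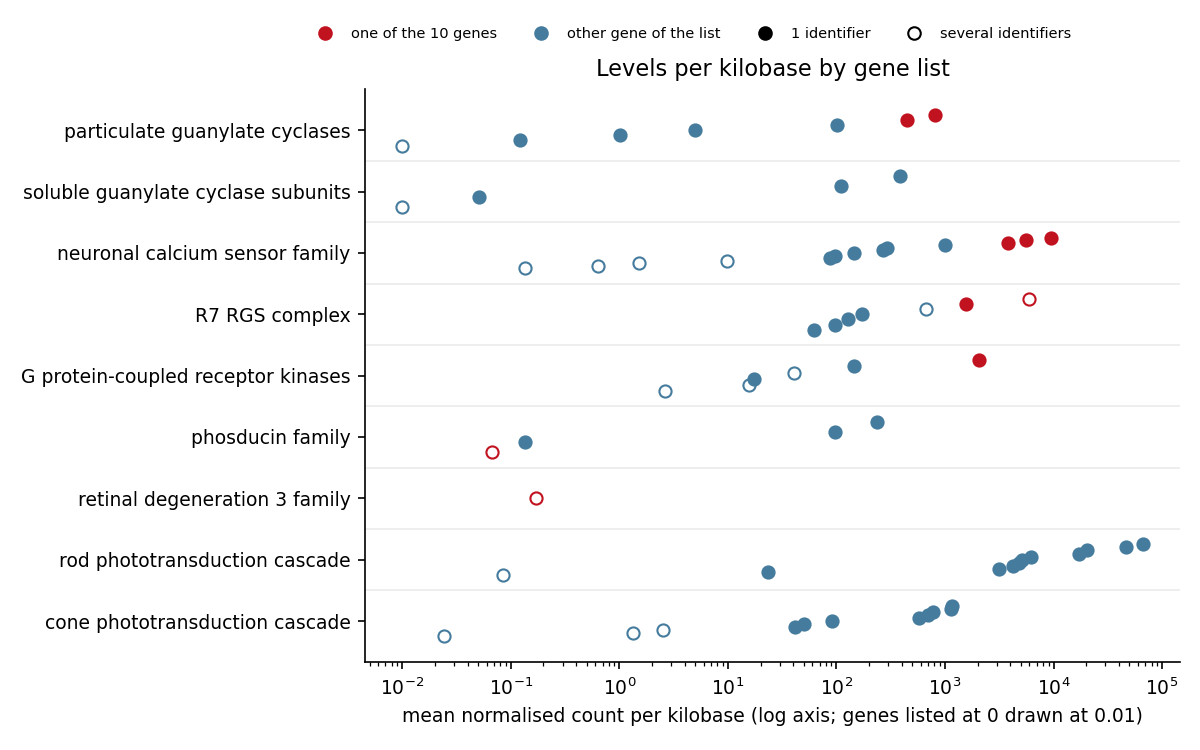
Mean normalised count per kilobase (log axis) of each gene of 9 lists, with the 10 genes in red and other genes in blue, and open points for genes with several identifiers. Genes listed at 0 are drawn at 0.01, and the red points lead the particulate cyclases, calcium sensors, R7 proteins and receptor kinases while Pdc and Rd3 lie below 1.

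Markers of retinal cell types were checked against the tissue label. All 5 rod markers were above 10 in mean normalised count, with Nr2e3 at 3390.1 and Nrl, which has 2 identifiers, at 88.9. Of the 5 cone markers, 4 were above 10, with Arr3 at 941 and Gnat2 at 1175. Markers of bipolar cells (Prkca at 4239, Trpm1 at 2866), amacrine cells (Gad1 at 2415, Pax6 at 2090.4), horizontal cells (Calb1 at 505), ganglion cells (Nefl at 2999) and Müller glia (Glul at 17455) were also detected. Lower values were listed for the bipolar genes Grm6 (964) and Cabp5 (675), the amacrine gene Slc6a9 (1725), the horizontal genes Onecut1 (91.6) and Lhx1 (47.7), the ganglion cell genes Sncg (693), Pou4f1 (461) and Rbpms (5.53), and the Müller genes Slc1a3 (2056) and Rlbp1 (1.39). Genes of neighbouring tissue were listed as well. The lens crystallin Cryaa had a mean normalised count of 898, Cryba1 had 288 and Crygs had 161. The pigment epithelium genes Ttr, Rgr, Rpe65 and Best1 had 540.04, 386, 121 and 2.72. Microglial Cx3cr1 had 39.0, C1qa 36.9 and Tmem119 11.6, and the endothelial gene Cldn5 had 51.1, while Hbb-b1 of blood had 10.7. The markers below 1 were Pde6c of cones, Hba-a1 of blood at 0.213 and Pecam1 of endothelium at 0.446, and the amacrine marker Tfap2b was not listed. The share of each cell type in the levels of the cyclases and their partners was not tested.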

How the data were processed

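RNA from 16 retinas, 8 per group, was read in single-end reads of 75 bases. The authors used Trimmomatic, TopHat2 (against an NCBI mouse build older than GRCm38), HTSeq and DESeq2 1.22.2. The signal used here is the mean over all libraries of normalised counts that the authors deposited for each symbol. The deposited fold changes and p-values hold the authors' comparison and were not used. The 32 count columns of 2 tables match no sample label and were not used, so the planned test of spaceflight against ground control was not run, and depth per library was not analysed here.

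Lengths and exons came from GENCODE release 21 (GRCm38), by symbol or older symbol; 82.5% of symbols above 0 had a length. Only 74.1% of symbols with several identifiers could be placed, under a minimum of 80%, so a summary of shared bases over the whole table was void. How several identifiers became 1 symbol is not given in the sources used here. Members and lists were chosen with earlier results of these data known. The text names every member, its neighbours in rank, every gene of a list of up to 10 genes, and otherwise the 3 highest and 1 lowest by mean normalised count. Some genes that this rule names are not reported here. Python 3.11.15 and pandas 2.3.3 were used.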

Additional observations from a re-analysis of the deposited data

How the results depend on the processing

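The number of members in the top 5% by level per kilobase was 8, and 7 with the shortest transcripts or when ranked among genes with a mean normalised count of at least 10. It was 8 without division by length. Gucy2f was outside in each alternative that gave fewer than 8. In 2 alternatives chosen after seeing the data, it was 7 with the length of the counted transcript and 6 among symbols with 1 identifier, which leave out Rgs9, Rd3 and Pdc by construction. For the cascade genes the number was 14, and 12 to 14 under the same alternatives. With the shortest transcripts, 6 of the 10 levels per kilobase rose, Pdc by 2.70 times, Gucy2e by 2.29, Rd3 by 2.12 and Rgs9 by 1.99; Rgs9 then led Rcvrn, and Gucy2e led Rgs9bp. The alternatives planned for the group comparison (another tool, no filter, the block and a stricter threshold) were not run. No paired analysis was possible because the count columns carry no replicate number of the labels. A pooled mean gives no error, so differences between levels have none.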

Other observations

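Other retinal genes with several identifiers, picked after their values were seen, ranged from near 0 to abundant. Rlbp1, a retinoid carrier of Müller glia, had a mean normalised count of 1.39, and its 2 counted transcripts have 172 exonic bases in 1 transcript only, of 2224 in all. Gngt2, the gamma subunit of cone transducin with 2 identifiers, had 4.02, and 279 of its 705 exonic bases lie in 1 transcript only. Trpm1, with 2 identifiers, had 2866, and 5063 of its 6851 exonic bases lie in 1 transcript only. Nrl had 88.9 with 82 such bases of 2504. The cause of these levels was not tested.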
